A study of Homo sapiens with 6 samples.

Results

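The genes described are 10 regulators of mitochondrial biogenesis and dynamics, chosen by symbol from a gene count table of HepG2 cells in which DGUOK was silenced. They are PPARGC1A, PPARGC1B, PPRC1, NRF1, OPA1, MFN1, MFN2, DNM1L, FIS1 and PINK1, and they make up 10 of the 34036 genes in the table. HepG2 is a human line derived from a hepatocellular carcinoma, and DGUOK encodes the mitochondrial kinase that phosphorylates purine deoxyribonucleosides for mitochondrial DNA synthesis. RNA was sequenced from 3 siControl samples, which received a non-targeting siRNA, and 3 siDGUOK samples, which received a pool of siRNAs against DGUOK. Both groups were transfected with Lipofectamine RNAiMAX and harvested after 48 h, so neither holds untransfected cells, and a pool does not separate the effects of its single siRNAs. The groups were read from the sample titles, since the deposited labels give the control siRNA as the treatment of all 6 samples. The question put to the 10 genes was whether their transcripts differed after DGUOK had been silenced for this time.

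Mitochondrial biogenesis is controlled in part by transcription. The coactivators PGC-1α (PPARGC1A), PGC-1β (PPARGC1B) and PRC (PPRC1) bind factors such as NRF1 and the estrogen-related receptors, which switch on nuclear genes for respiration and for mitochondrial DNA maintenance, and in liver PGC-1α also drives gluconeogenesis and fatty acid oxidation. The shape of the network depends on fusion of the outer membrane by the mitofusins MFN1 and MFN2, fusion of the inner membrane by OPA1, and division by the dynamin-related GTPase DNM1L, for which FIS1 is an outer membrane partner. PINK1 is a kinase that accumulates on depolarised mitochondria and marks them for removal by autophagy.

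The library totals were 19065684, 18915508 and 10527216 counts in siControl replicates 1, 2 and 3, and 18613138, 15978314 and 21334876 counts in siDGUOK replicates 1, 2 and 3. Levels are given as CPM, which are counts scaled to the library total after TMM adjustment. The targeted gene checked the labels: DGUOK was at 54.4, 53.1 and 48.2 CPM in siControl replicates 1, 2 and 3 and at 9.08, 10.5 and 6.72 CPM in siDGUOK replicates 1, 2 and 3. Every siDGUOK library lay below every siControl library, with 16.8% of the siControl level left (log2 fold change −2.57, standard error 0.19, adjusted p = 1.64e-08 in edgeR's quasi-likelihood test with Benjamini-Hochberg adjustment). Some libraries stood apart. siDGUOK replicate 1 had counts in 21057 genes, against 16205 to 17583 in the others. Mitochondrially encoded genes took 3.78% of the counts of siControl replicate 1 and 2.31% to 2.88% of the others. The summed level of 7 endothelial markers was 61 CPM in siDGUOK replicate 2 and 1.39 to 4.48 CPM elsewhere, with VWF the most abundant and STAB2 at 0 in every library.

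Of the 10 members, 9 had enough counts to be tested, and 1 of the 9 was called. A call required an adjusted p under 0.05 over all genes tested and a log2 fold change above 0.5 in size. PINK1 was called lower in siDGUOK cells. The count of members called higher was 0 in edgeR's test and 0 in DESeq2. DESeq2 called 2 of the 10 members lower, PPARGC1B and PINK1, and called 6.65% of all its genes higher and 6.01% lower. An unadjusted p under 0.05 was seen for 2 members, PINK1 and PPRC1, and for 30.6% of all genes tested. Of all 14476 genes tested, 14.1% were called, 6.68% lower and 7.42% higher, so 1 call among 9 members is near the background share. At the adjusted p alone, 1 member passed, where 19.7% of all genes did. The siControl and siDGUOK libraries did not overlap for 2 of the 9 members tested, PINK1 and OPA1, beside 36.0% of all genes tested. The log2 fold changes of the 9 members had a median of 0.06, with 5 positive and 4 negative, and the median over all genes tested was 0.02. PPARGC1B, the member that was not tested, had the largest relative difference by its counts.

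**Figure D1:**
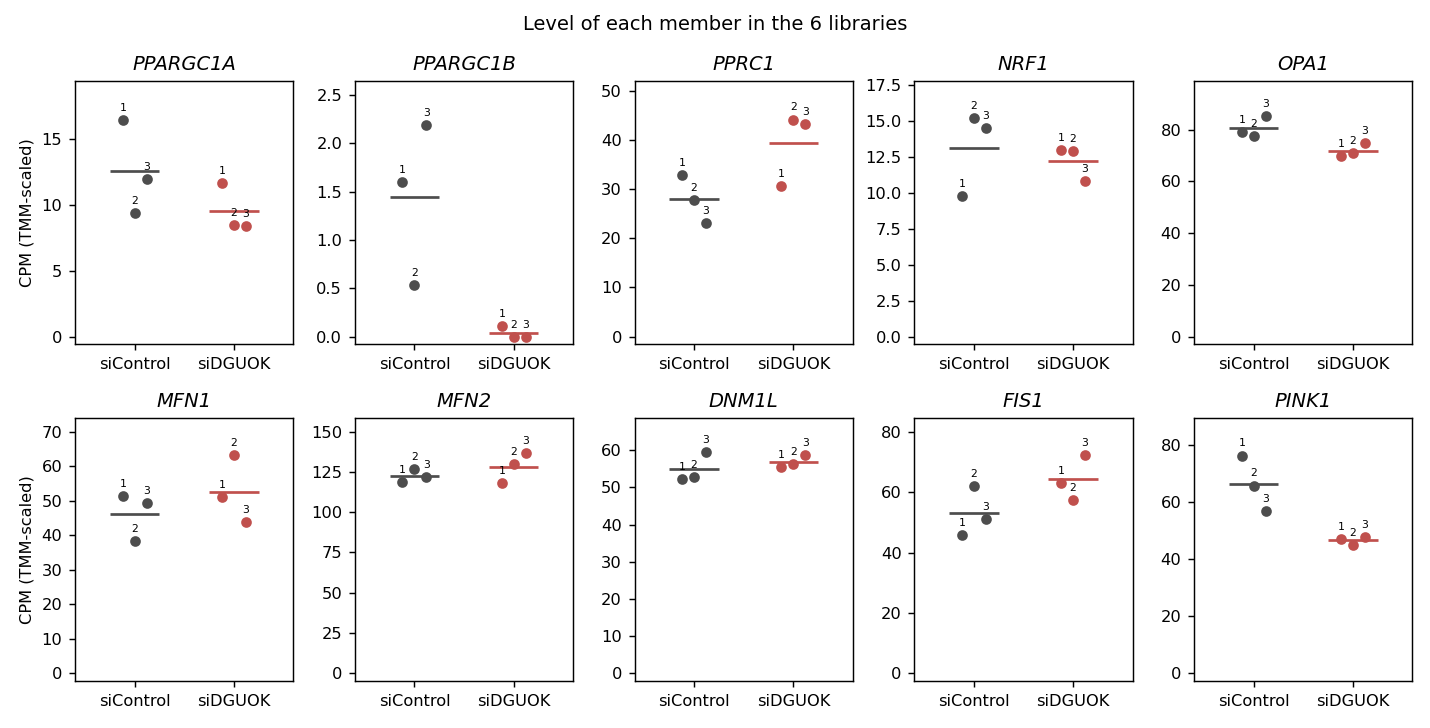
Level of each of the 10 members in CPM (vertical axes, each from 0 and on its own scale) in the 3 siControl and 3 siDGUOK libraries. Points are libraries marked by replicate number and lines are group means. PINK1, OPA1 and PPARGC1B have every siDGUOK library below every siControl library, and the groups overlap for the other 7.

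PINK1 (ENSG00000158828.7) spans chromosome 1 from 20633458 to 20651511 in GRCh38. It was measured at 76.2, 65.7 and 56.9 CPM in siControl replicates 1, 2 and 3 and 47, 45 and 47.6 CPM in siDGUOK replicates 1, 2 and 3. All 3 siDGUOK libraries lay close together and below the lowest siControl library, while the siControl libraries were spread widely. The group levels were 66.3 ± 9.67 and 46.5 ± 1.37 CPM (SD, n = 3). PINK1 fell to 70.1% of its siControl level, a log2 fold change of −0.51 (standard error 0.13, 95% interval −0.79 to −0.24, adjusted p = 0.00884 in edgeR's quasi-likelihood test with Benjamini-Hochberg adjustment). The estimate was only just beyond the call threshold of 0.5. Without siControl replicate 1, the library with the highest PINK1 level, it was −0.40 (adjusted p = 0.0749 in edgeR's test) and PINK1 was not called. Without siDGUOK replicate 2 it was −0.49, and with DESeq2's shrunken fold changes −0.48, both under the fold change threshold but with an adjusted p of 0.0315 in edgeR and 0.00571 in DESeq2. Over all alternatives the log2 fold change of PINK1 stayed negative.

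An antisense gene, PINK1-AS, shares 1907 bp, or 39.5%, of the exon sequence of PINK1 on the opposite strand. The counting ignored strand and dropped reads that overlap more than 1 gene. Reads of both genes in the shared stretch cannot be told apart and would be in neither count. The PINK1 count would then lack the reads of that stretch, and its level per kb is uncertain to that degree. PINK1-AS was at 13.1, 12.3 and 15.5 CPM in the siControl libraries and at 12.5, 11.8 and 15.8 CPM in the siDGUOK libraries. The groups of PINK1-AS overlapped, with a log2 fold change of −0.02 (edgeR's test gave adjusted p = 0.967, with a standard error of 0.24). The ratio of PINK1 to PINK1-AS counts was 4.94 ± 1.13 in siControl and 3.52 ± 0.44 in siDGUOK libraries (SD, n = 3), and the groups overlapped.

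The genes whose log2 CPM over the 6 libraries was most like that of PINK1, among genes averaging 10 CPM or more, were CLK2, CKAP2 and ERP44, with Pearson's r of 0.9962, 0.9895 and 0.9895. With 6 libraries in 2 groups such values mostly reflect the group difference and are given as a description. Of the 3 genes, CKAP2 passed the test, with a log2 fold change of −0.57 (adjusted p = 0.0307 in edgeR's test). CLK2 and ERP44 had adjusted p of 0.0659 and 0.0594 in the same edgeR test.

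Among the PGC-1 coactivators, PPARGC1B (ENSG00000155846.16, chromosome 5 from 149730298 to 149855022) was the rarest transcript. It had 30, 10 and 23 counts in siControl replicates 1, 2 and 3 and 2, 0 and 0 counts in siDGUOK replicates 1, 2 and 3. Every siDGUOK library lay below every siControl library. Summed over libraries there were 63 counts in siControl and 2 in siDGUOK, a ratio of 37.1 after scaling to library size (exact Poisson 95% interval 9.85 to 313). This interval covers counting error only and not the spread between samples. In log2 the ratio of siDGUOK to siControl was −5.21, but its size is poorly known. Fits gave −7.64 without siDGUOK replicate 1 and −0.50 with shrunken fold changes. Without siDGUOK replicate 1 the remaining siDGUOK libraries had 0 counts, so the counts do not bound the value of −7.64. The gene did not enter the main test because 2 libraries, and not the 3 needed, reached the filter's level of 0.533 CPM. siControl replicate 2 was just under this level at 0.529 CPM, and both values were taken without TMM scaling. Where alternatives let PPARGC1B into the test, it was called lower by DESeq2 (log2 fold change −5.33, adjusted p = 0.00784) but not by edgeR without a count filter (−5.06, adjusted p = 0.111). The other fits with the gene, each without 1 library, gave an adjusted p between 0.0676 and 0.214 in edgeR's test.

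PPRC1 (ENSG00000148840.10), the PRC gene on chromosome 10 from 102132994 to 102150333, went in the other direction in some libraries. Its level was 32.9, 27.8 and 23.2 CPM in siControl replicates 1, 2 and 3 and 30.7, 44.2 and 43.3 CPM in siDGUOK replicates 1, 2 and 3. siDGUOK replicates 2 and 3 were above every siControl library, and siDGUOK replicate 1 was within the siControl range. The log2 fold change was 0.49 (standard error 0.18, 95% interval 0.11 to 0.87, adjusted p = 0.0671 in edgeR's quasi-likelihood test with Benjamini-Hochberg adjustment), short of both thresholds. PPRC1 was called higher without siDGUOK replicate 1 (0.62, adjusted p = 0.0352) and without siControl replicate 1 (0.63, adjusted p = 0.0485) in edgeR's test. In the same test it was weaker without siControl replicate 3 (0.38, adjusted p = 0.263). That was also so without siDGUOK replicate 2 (0.40, adjusted p = 0.216) or siDGUOK replicate 3 (0.41, adjusted p = 0.204) in edgeR's test.

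PPARGC1A (ENSG00000109819.8), on chromosome 4 from 23755041 to 23904089, was at 16.5, 9.38 and 12 CPM in siControl replicates 1, 2 and 3 and at 11.7, 8.49 and 8.42 CPM in siDGUOK replicates 1, 2 and 3. The groups overlapped, with siControl replicate 1 the highest library. The log2 fold change was −0.40 (standard error 0.28, 95% interval −0.995 to 0.19, adjusted p = 0.377 in edgeR's test), an interval that takes in both no difference and one past the call threshold. It was −0.16 without siControl replicate 1 and −0.59 without siDGUOK replicate 1. NRF1 (ENSG00000106459.14, chromosome 7 from 129611720 to 129757082), the transcription factor that PGC-1 proteins coactivate, ranged from 9.77 to 15.2 CPM in siControl and from 10.8 to 13 CPM in siDGUOK libraries. Its log2 fold change was −0.10 (edgeR's test gave adjusted p = 0.848, with a standard error of 0.25), and it turned to 0.02 without siControl replicate 2.

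**Figure D2:**
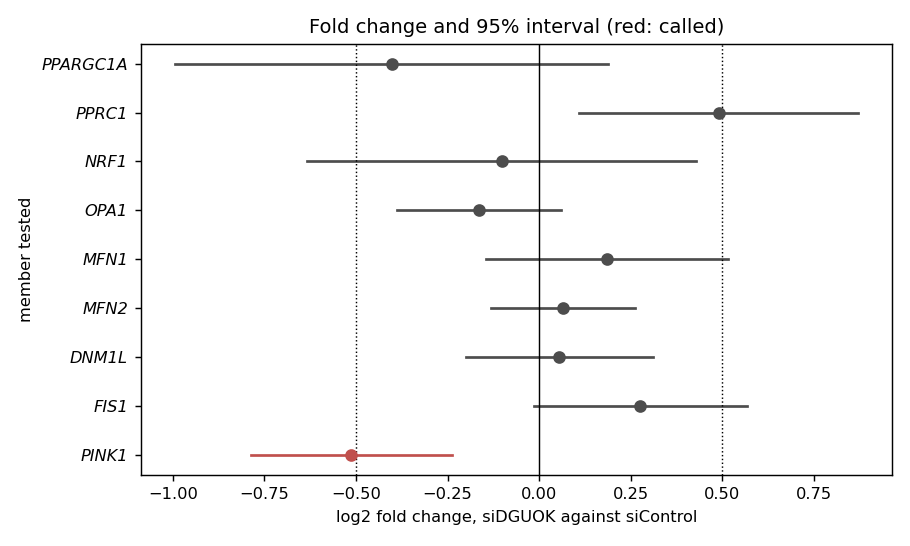
Log2 fold change of siDGUOK against siControl (horizontal axis) for the 9 members tested, with 95% intervals from edgeR's quasi-likelihood fit. Dotted lines mark the call threshold of 0.5 in either direction. PINK1, in red, is the only member called, at −0.51, and PPRC1 lies at 0.49.

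No fusion gene passed the test. OPA1 (ENSG00000198836.8, chromosome 3 from 193593144 to 193697811) was at 79.1, 77.6 and 85.1 CPM in siControl replicates 1, 2 and 3 and at 69.6, 70.9 and 74.9 CPM in siDGUOK replicates 1, 2 and 3. The groups did not overlap, and siDGUOK was the lower. The log2 fold change was −0.16 (standard error 0.11, 95% interval −0.39 to 0.06, adjusted p = 0.335 in edgeR's test), so the separation did not pass the test. MFN1 (ENSG00000171109.18, chromosome 3 from 179347709 to 179394936) ranged from 38.3 to 51.3 CPM in siControl and from 43.8 to 63.2 CPM in siDGUOK libraries, with a log2 fold change of 0.19 (adjusted p = 0.485 in edgeR's test). The MFN1 estimate hung on single libraries: it was 0.04 without siDGUOK replicate 2, 0.06 without siControl replicate 2 and 0.29 without siDGUOK replicate 3. MFN2 (ENSG00000116688.16, chromosome 1 from 11980181 to 12015211) was the most precisely measured member, at 119 to 127 CPM in siControl and 118 to 137 CPM in siDGUOK libraries. Its log2 fold change was 0.07 with a 95% interval of −0.13 to 0.26 (adjusted p = 0.710 in edgeR's test), which leaves out any difference as large as the call threshold.

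The promoter table of RefSeq (GRCh38.p14) holds 8 of the 10 members, all but PINK1 and NRF1, with 9 promoters in all, and the 250 bases before each start were searched on both strands. Because NRF1 is itself a member, its palindromic element, printed in capitals below, was searched with the cAMP response element TGACGTCA and the estrogen-related receptor element TCAAGGTCA. The NRF1 element was found in 1 member, OPA1, and in 1.03% of the 35116 promoters in the table. It starts 94 bases before the RefSeq start of OPA1, which lies downstream of the Gencode start given above, and the surrounding 30 bases on the plus strand at chr3:193593104-193593133 are shown with the element in capitals.
OPA1: gacgcactgtGCGCATGCGCtggtcctccg
The cAMP response element was found in 0 member promoters and in 1.65% of all promoters, and the estrogen-related receptor element in 0 member promoters and in 0.319% of all promoters. A match describes the letters in this window and is no measure of binding.

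Neither fission gene passed the test. DNM1L (ENSG00000087470.17, chromosome 12 from 32679200 to 32745650) ranged from 52.3 to 59.4 CPM in siControl and from 55.4 to 58.8 CPM in siDGUOK libraries. Its log2 fold change was 0.06 with a 95% interval of −0.20 to 0.31 (adjusted p = 0.824 in edgeR's test), also short of the call threshold at both ends. FIS1 (ENSG00000214253.8, chromosome 7 from 101239458 to 101252316) ranged from 45.9 to 62 CPM in siControl and from 57.4 to 72.3 CPM in siDGUOK libraries, and its log2 fold change was 0.28 (95% interval −0.01 to 0.57, adjusted p = 0.188 in edgeR's test). That interval reaches past the call threshold, and the FIS1 estimate was 0.17 without siDGUOK replicate 3, 0.18 without siControl replicate 1 and 0.41 (adjusted p = 0.0655 in edgeR's test) without siControl replicate 2. The ratio of the summed fusion genes to the summed fission genes, each per kb of exon, was 0.798 ± 0.12 in siControl and 0.690 ± 0.0977 in siDGUOK libraries (SD, n = 3). FIS1 made up most of the fission sum, at a mean of 29.6 CPM per kb in siControl libraries beside 6.8 for DNM1L. The ratio of MFN2 to MFN1 per kb was 1.57 ± 0.313 and 1.45 ± 0.323 (SD, n = 3). Its size depends on the length used. With the longest transcript, MFN2 was at 25.7 and MFN1 at 8.88 CPM per kb in siControl cells. The ratio of PPRC1 to PPARGC1A per kb, added after seeing the data, was 4.1 ± 1.03 and 7.71 ± 2.63 (SD, n = 3). For all 3 ratios the groups overlapped.

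**Figure D3:**
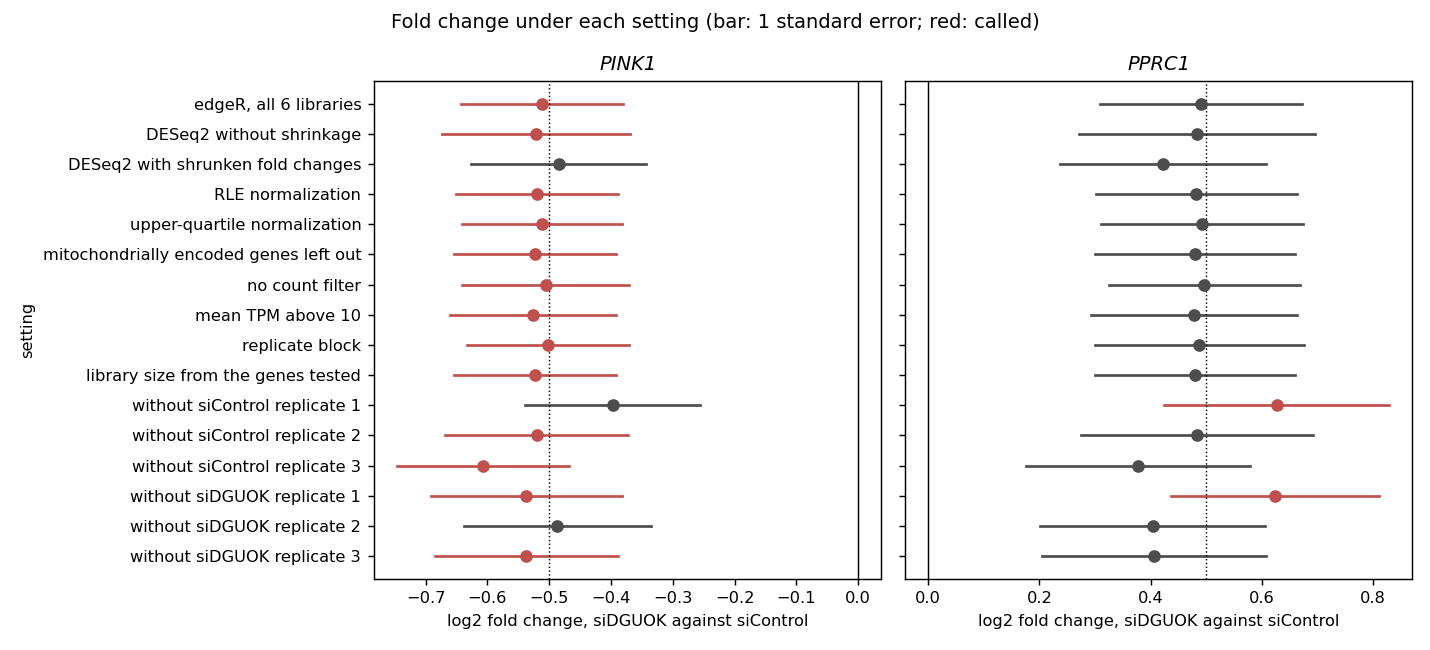
Log2 fold change of PINK1 and PPRC1 (horizontal axes) with all 6 libraries in edgeR and under each alternative tool, scaling, filter or left-out library (vertical axis). Bars are 1 standard error, dotted lines the call threshold of 0.5, and red marks a call. PINK1 stays between −0.61 and −0.40 and PPRC1 between 0.38 and 0.63, both close to the threshold.

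Levels can be compared between genes only per length, here as CPM per kb of the gene's exons. In siControl cells FIS1 stood highest at 29.6 ± 4.58, followed by PINK1 at 13.7 ± 2 and MFN2 at 12 ± 0.414 CPM per kb (SD, n = 3). The ranges of PINK1 and MFN2 overlapped, as did those of OPA1 and MFN1 and of MFN1 and DNM1L, which followed at 8.91, 7.79 and 6.8 CPM per kb. The regulators of transcription were the rarest, with PPRC1 at 4.59, NRF1 at 3.19, PPARGC1A at 1.16 and PPARGC1B at 0.112 CPM per kb, and no neighbours among these 4 overlapped. In siDGUOK cells PINK1, at 9.63 ± 0.284, was below MFN2, at 12.5 ± 0.913 CPM per kb (SD, n = 3), and their ranges did not overlap. The place of PINK1 depends on the length used. With the longest transcript in place of all exons, MFN2 was at 25.7 and PINK1 at 17.3 CPM per kb in siControl cells. By the same length FIS1 was at 52.8 and PPARGC1A at 2.01 CPM per kb in siControl cells. With only the exon bases shared with no other counted gene, a length chosen after seeing the data, PINK1 was at 22.7 ± 3.3 CPM per kb in siControl and 15.9 ± 0.469 in siDGUOK cells (SD, n = 3), above MFN2 at 12 and 12.5. The order of PINK1 and MFN2 therefore cannot be told from these counts in either group.

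**Figure D4:**
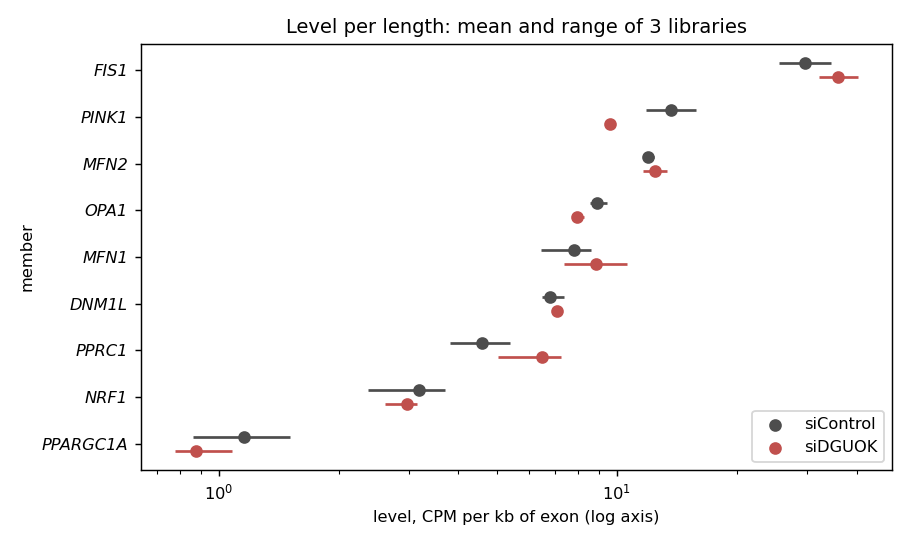
Level of 9 members in CPM per kb of exon (horizontal log axis) in siControl and siDGUOK cells, as the mean and the range of 3 libraries. PPARGC1B is left out because 2 siDGUOK libraries are at 0. FIS1 is the highest and PPARGC1A the lowest of the 9 in both groups, and the PINK1 ranges of the groups do not overlap.

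The wider pathway was described by 7 lists with 115 genes, of which 112 were tested. By edgeR 6 of them were higher and 5 lower, 9.82% of those tested beside 14.1% of all genes, with a median log2 fold change of −0.04. Without 1 library the total ran from 8 to 14, with 3 to 8 higher and 3 to 8 lower. The counts of each list can be read against the shares of all genes, 7.42% higher and 6.68% lower. Partners and regulators of the PGC-1 coactivators numbered 24 tested, of which 2 were called higher and 1 lower. ESRRA, the estrogen-related receptor that PGC-1α and PGC-1β coactivate, was at 83.6, 69.6 and 88.4 CPM in the siControl libraries and at 120, 113 and 128 CPM in the siDGUOK libraries. All 3 siDGUOK libraries were the higher, with a log2 fold change of 0.59 (edgeR's test gave adjusted p = 0.000711, with a standard error of 0.11), and without siControl replicate 2 it was 0.49 and under the threshold. CRTC2, a CREB coactivator that acts on the PPARGC1A promoter, had a log2 fold change of 0.58 (adjusted p = 0.0496 in edgeR's test) and lost its call without any 1 of the 6 libraries, with DESeq2, with RLE scaling, with the replicate block, without a count filter and without the mitochondrially encoded genes. HNF4A, the most abundant gene of the list and a liver transcription factor, fell from 246 ± 14.4 to 173 ± 9.45 CPM (SD, n = 3), and its log2 fold change was −0.51 (adjusted p = 0.000207 in edgeR's test), which was −0.47 without siControl replicate 1 or without siDGUOK replicate 3. HCFC1 passed the adjusted p alone, with a log2 fold change of −0.39, and was named after its value was seen.

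Genes that PGC-1 coactivators or NRF1 are known to induce numbered 19 tested. Of these, 3 were called lower and 0 higher in edgeR's test, 5 had an unadjusted p under 0.05, and DESeq2 called 5 lower and 0 higher. Among all genes edgeR called 6.68% lower and DESeq2 6.01%. The list's 3 calls were 15.8% of those tested by edgeR, near the 14.1% of all genes called in either direction. Whether the list leans to lower calls more than all genes do was not tested. At the unadjusted p, 5 of 19 is no more than the 30.6% of all genes. Their median log2 fold change was −0.14, with 15 of 19 negative. CPT1A, which carries long-chain fatty acids into mitochondrial oxidation, was at 133, 129 and 125 CPM in the siControl libraries and at 50.8, 57.6 and 39.3 CPM in the siDGUOK libraries. The groups were far apart, with a log2 fold change of −1.39 (edgeR's test gave adjusted p = 2.3e-07, with a standard error of 0.13). ACADM, a dehydrogenase of the same pathway, fell from 79.5 ± 8.62 to 49.6 ± 1.48 CPM (SD, n = 3). G6PC, the last enzyme of gluconeogenesis, fell from 11.7 ± 1.85 to 2.94 ± 2.48 CPM (SD, n = 3), which is −2.01 in log2 (edgeR's test gave adjusted p = 0.00619, with a standard error of 0.49). The size of the G6PC estimate was unsteady, at −2.90 without siDGUOK replicate 2, −1.57 without siDGUOK replicate 3 and −1.03 with shrunken fold changes, each still called lower. SOD2 passed the adjusted p alone at −0.49, was called lower under several alternatives, and was named after its value was seen. ATP5B, the most abundant gene of the list, was at 545 ± 12.9 and 494 ± 22.1 CPM (SD, n = 3), and its log2 fold change of −0.14 did not pass the test.

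Transcripts typical of hepatocytes moved in the same samples as these targets. Of 10 hepatocyte markers 9 were called lower and 0 higher in edgeR's test. HNF4A belongs both to these markers and to the PGC-1 partners. Their summed level was 54100, 48200 and 47300 CPM in siControl replicates 1, 2 and 3 and 28000, 24400 and 22900 CPM in siDGUOK replicates 1, 2 and 3. The marker not called, SERPINA1, was at a mean of 7770 CPM in siControl and 7880 CPM in siDGUOK libraries. It was named after its value was seen. ALB, the most abundant, went from 16100 to 5400 CPM, and no marker of the list was at 0. The part of this shift in the values of PPARGC1B, PINK1 and the target genes was not tested. All 6 samples are labelled as HepG2, and bulk RNA does not tell a fall in every cell from a fall in some cells. Leukocyte markers, 7 of 8 in the table, summed to 1610 to 1700 CPM in siControl and 1760 to 1900 CPM in siDGUOK libraries, nearly all of it LYZ, and 0 of the 6 tested were called by edgeR, 0 by DESeq2 and 0 had an unadjusted p under 0.05. Of 8 stromal markers 4 were tested, with COL1A1 called higher and PDGFRB lower by edgeR, 4 called by DESeq2 and 3 with an unadjusted p under 0.05, and ACTA2 was the most abundant and THY1 at 0. Their summed level was 44.2, 41.6 and 36.5 CPM in siControl replicates 1, 2 and 3 and 70.1, 77.4 and 47.5 CPM in siDGUOK replicates 1, 2 and 3. Of the 7 endothelial markers 3 were tested and 0 called by edgeR, 1 by DESeq2, and 2 had an unadjusted p under 0.05. The 13 mitochondrially encoded mRNAs had 0 calls in edgeR and 0 in DESeq2, and 1 had an unadjusted p under 0.05. It was MT-CO1, their most abundant gene, with every siDGUOK library below every siControl library and a log2 fold change of −0.58 (adjusted p = 0.151 in edgeR's test).

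**Figure D5:**
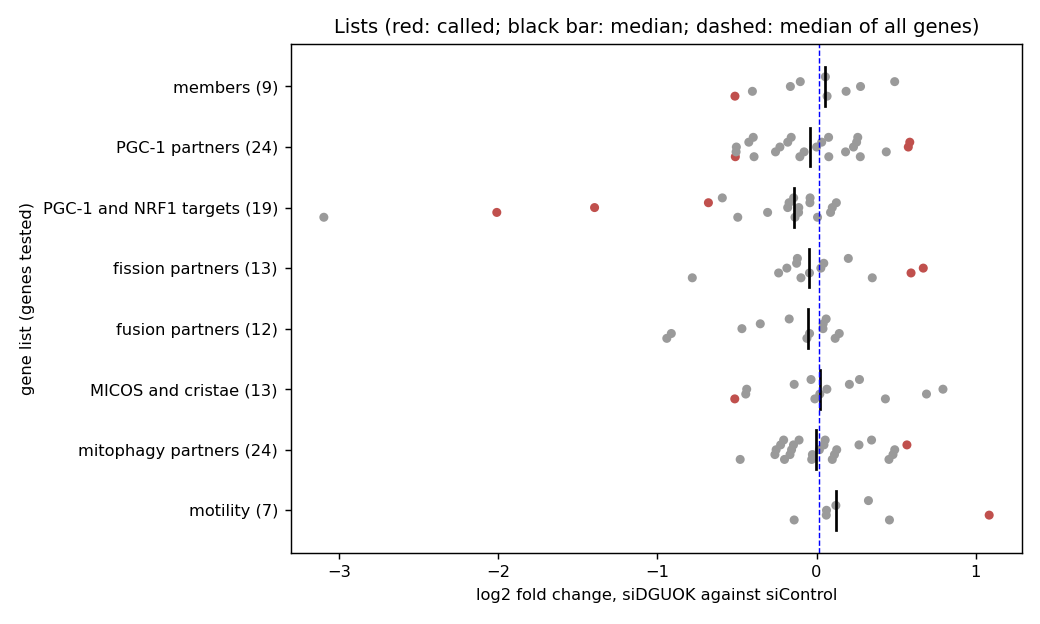
Log2 fold change of siDGUOK against siControl (horizontal axis) for every tested gene of the members and of the 7 pathway lists (vertical axis, with the number tested). Red points are called, black bars are list medians and the dashed line is the median of all 14476 genes tested, 0.02. The genes induced by PGC-1 or NRF1 have a median of −0.14 and 3 calls, all lower.

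Among receptors and partners of DNM1L, 13 were tested, with 2 called higher and 0 lower in edgeR's test and the same counts in DESeq2. MIEF2, an outer membrane receptor that recruits DNM1L, was at 15, 13.6 and 18 CPM in the siControl libraries and at 23.6, 23.6 and 26.7 CPM in the siDGUOK libraries. The groups did not overlap, with a log2 fold change of 0.67 (edgeR's test gave adjusted p = 0.0207, with a standard error of 0.20). The MIEF2 call was lost without siControl replicate 1, siControl replicate 2, siDGUOK replicate 1 or siDGUOK replicate 3, where the log2 fold change was 0.65, 0.58, 0.68 and 0.60 but the adjusted p in edgeR's test was 0.0629, 0.0738, 0.0587 and 0.0732. PGAM5, a mitochondrial phosphatase that acts on DNM1L, rose from 55.9 ± 7.81 to 84.4 ± 4.66 CPM (SD, n = 3), and its log2 fold change was 0.59 (adjusted p = 0.00175 in edgeR's test). DNM2, the most abundant of the list, had a log2 fold change of −0.13 and did not pass.

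Proteases and partners of OPA1 and the mitofusins had 0 calls among 12 tested in edgeR, 0 in DESeq2, and 1 unadjusted p under 0.05. PHB, a prohibitin and the most abundant, was at 406 ± 28 and 418 ± 12 CPM (SD, n = 3). Of 13 genes of MICOS and cristae organisation, 1 was called lower and 0 higher in edgeR's test. CHCHD10, an intermembrane space protein, was at 42.2, 40.8 and 42.4 CPM in the siControl libraries and at 29, 30 and 28.9 CPM in the siDGUOK libraries. Both groups were tight and well apart, with a log2 fold change of −0.51 (edgeR's test gave adjusted p = 0.0164, with a standard error of 0.15), which lost its call without siControl replicate 1 (−0.50, adjusted p = 0.056) or siControl replicate 3 (−0.50, adjusted p = 0.0658) and with DESeq2's shrunken fold changes (−0.48). CHCHD3, a MICOS subunit named after its value was seen, passed the adjusted p alone at −0.44. IMMT, the most abundant of the list, was at 108 ± 7.9 and 106 ± 6.04 CPM (SD, n = 3).

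Partners of PINK1 and other mitophagy genes numbered 24 tested, of which 1 was called higher and 0 lower in edgeR's test, with the same counts in DESeq2. TAX1BP1, an autophagy receptor, rose from 205 ± 16.2 to 304 ± 19.7 CPM (SD, n = 3), and its log2 fold change was 0.57 (adjusted p = 7.75e-05 in edgeR's test), which was 0.50 and under the threshold without siDGUOK replicate 1. SQSTM1, the most abundant gene of the list and an autophagy receptor, was at 483, 507 and 527 CPM in the siControl libraries and at 710, 696 and 727 CPM in the siDGUOK libraries. The groups did not overlap, and the log2 fold change of 0.49 (adjusted p = 4.96e-05 in edgeR's test) was just under the call threshold. BNIP3L, MARCH5 and BNIP3 also passed the adjusted p alone, with log2 fold changes of 0.48, 0.45 and 0.27. These 3 genes were named after their values were seen. In total 5 of the 24 mitophagy genes passed the adjusted p alone, beside 19.7% of all genes tested. By sign alone the 24 genes split evenly, 12 up and 12 down, around a list median of −0.0042 in log2. Among 7 genes of mitochondrial motility and fusion regulation, 1 was called higher and 0 lower in edgeR's test. MIGA1, an outer membrane protein that promotes fusion, was at 13, 14.2 and 15.6 CPM in the siControl libraries and at 32, 26.2 and 32.4 CPM in the siDGUOK libraries. Every siDGUOK library was above every siControl library, with a log2 fold change of 1.08 (edgeR's test gave adjusted p = 0.00038, with a standard error of 0.19). TRAK1, the most abundant of that list, had a log2 fold change of −0.14 and did not pass.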

How the data were processed

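Per the labels and the study's methods, the authors aligned paired-end reads to GRCh38 with STAR 2.6.1 and deposited whole counts per gene from featureCounts 1.6.5. Bowtie 1.1.2 is listed without a role. Counts were not normalized. The default counting ignores strand and drops reads with several alignments or genes; the labels leave the RNA selection and kit unfilled. Counts were fitted in R 4.3.3 with edgeR 4.0.16 (filterByExpr at a minimum count of 10, TMM, robust quasi-likelihood fit of condition alone, Benjamini-Hochberg adjustment over all genes tested); DESeq2 1.42.0 was an alternative. On simulated counts a first recovery criterion, set for any tested gene, was not met, and it was then applied to well-counted genes alone. Library size was the total of all genes. An earlier fit used the total of tested genes alone, and the change was made after that fit had been seen, to follow an earlier treatment of these counts. Lengths, positions and exon overlaps came from Gencode 44, while the study's methods name an earlier Gencode release. Levels per kb therefore join counts and lengths of different releases. Named genes are the members, DGUOK, every called gene of each list and its most abundant gene, with the 3 genes most like each called member; others are marked as named after their values were seen. Some list genes entered the list counts but are not reported here by name. The ratio of PPARGC1A to PPARGC1B was not formed because PPARGC1B had no counts in 2 libraries; the PINK1-AS values and the promoter search were added after seeing the data. Members and lists were chosen with earlier results of these data known. The series record calls the replicates of each group independent and biological, handled side by side and sequenced together; it does not say whether they were wells of 1 transfection or separate experiments, so p-values measure the spread between these samples. Replicates of a group differed by more than counting error alone gives, with a chi-square of 10.8 to 24.8 for each degree of freedom.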

Additional observations from a re-analysis of the deposited data

How the results depend on the processing

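The count of members called was 2 with unshrunken DESeq2, which added PPARGC1B, and ran from 0 to 2 when each library was left out; DESeq2's shrunken fold changes called PPARGC1B in place of PINK1. PINK1 was −0.48 with shrunken fold changes and ran from −0.61 to −0.40 without 1 library, PPRC1 from 0.38 to 0.63, and NRF1 from −0.28 to 0.02012, positive without siControl replicate 2. The cause was not tested. The log2 ratio of PPARGC1B was −5.21 from its counts and −0.50 with shrunken fold changes, which pull low counts toward 0. Without 1 library it ran from −7.64 to −4.51, and without siControl replicate 1 PPARGC1B did not enter the fit. The value of −7.64, without siDGUOK replicate 1, rests on siDGUOK libraries with 0 counts and is not bounded by them. DGUOK stayed between −2.72 and −2.25 under every alternative. In the 7 lists 18 of the 112 genes tested passed the adjusted p alone, against 11 with the fold change threshold. Of all genes tested 19.7% passed the adjusted p alone and 14.1% passed with the fold change threshold. With only genes at a mean TPM above 10, the count of list genes called was 9. G6PC and MIGA1 were left out by that filter and so were not tested there. Library size from the tested genes alone, an alternative chosen after seeing the data, gave 2032 calls among all genes against 2041, 1 member called and PINK1 at −0.52; of the list genes CRTC2 lost its call and SOD2 gained a lower one at −0.50. With the replicate number as a block, 1 member was called, PINK1 at −0.50, 10 list genes, with CRTC2 lost, and 2077 genes in all. Same-numbered libraries correlated at 0.024, 0.0166 and −0.00224 over the genes tested after group means were removed. No pairing by number was seen over these genes as a whole, and pairing within a subset of genes was not tested. PPARGC1B had too few counts to enter the main test.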
